A study of Caenorhabditis elegans with 2 samples.

Results

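The nuclear-encoded oxidative phosphorylation genes of *C. elegans* were compared between worms on 2 diets. The members are 38 genes listed by symbol, out of 46904 genes in the table, and they encode subunits of complex I (8 genes), II (4), III (7), IV (7) and V (10) and cytochrome c (2). The rule lists them by function and uses no measured value, but the list was drawn up with earlier results of these data known. All 38 symbols matched 1 identifier each. N2 worms, the wild-type laboratory strain, were fed *L. plantarum* with a trace of *E. coli* (0.2 µl), either wild-type BW25113 or a mutant that lacks *pdxH*, a gene of vitamin B6 synthesis. Both groups thus shared the worm genotype and the *L. plantarum* food and differed in the *E. coli* strain. Per the methods of the study, experiments began with synchronized hermaphrodite larvae of the first stage, and RNA came from whole worms of both diets collected at the same stage. The stage at collection and the time on the food are not given in the sources used here. There was 1 library per diet, so no value has a replicate and no test between diets could be made.

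Oxidative phosphorylation makes most of the ATP of an animal cell. Complex I takes electrons from NADH and complex II takes them from succinate, ubiquinone carries them to complex III, cytochrome c carries them on to complex IV, and complex IV passes them to oxygen. Complexes I, III and IV pump protons across the inner mitochondrial membrane, and complex V, the ATP synthase, uses that gradient to make ATP. Most subunits are encoded in the nucleus and a few in mitochondrial DNA. In *C. elegans*, loss of respiratory chain function is known for slow larval growth, and the *isp-1*, *nuo-6*, *gas-1* and *mev-1* mutants are classic models of altered lifespan.

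The wild-type library held 40707752 reads counted on genes and the *pdxH* library 46372171, and pairs of values below are given in this order. Shares of a library or of all reads are shares of these totals. Coordinates are those of WBcel235, the assembly of ce11. A log2 ratio below is *pdxH* over wild type, scaled by these totals, with a pseudocount of 1 added to the deposited values, and each interval is a 95% interval for counting error only. It does not cover differences between worm cultures. Levels compared between genes are RPKM values computed here from the reads, the library total and the exon length of each gene, unlike the deposited values, which carry no length. Of the 38 members, 37 had at least 100 reads in the 2 libraries together. *cyc-2.2* had 4 and 0 reads and is given no fold.

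Most members were at nearly the same level in the 2 libraries. Their median log2 ratio was -0.022, against 0.010 over the 13227 genes with at least 100 reads, and the middle 50% of the members lay between -0.084 and 0.016, against -0.16 and 0.18 for those genes. No member was past a log2 ratio of 0.5 in either direction (0 of 37), where 4.68% of all genes were above 0.5 and 8.89% below -0.5. Among genes with at least 1000 reads these shares were 1.95% and 6.25%, and among all genes with reads 17.8% and 19.4%. At a threshold of 0.25, 0 members were higher and 2 were lower, *asb-1* and *ucr-2.3*, where 18% of all genes were higher and 17.7% lower. Together the members held 674858 and 762508 reads, 1.66% and 1.64% of their libraries. Their summed reads gave a log2 ratio of -0.012 (95% interval -0.017 to -0.0071).

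Of the 37 members, 26 were below 0 and 11 above, where 6374 of the 13227 genes with at least 100 reads were below 0 and 6853 above. The counting interval left out 0 on the high side for 7 members (18.9%, against 28.7% of all genes) and on the low side for 14 (37.8%, against 27%), and it held 0 for 16. Such counts rise with depth, and among genes with at least 1000 reads the shares were 33.3% on the high side and 30.4% on the low side. The members are deeply sequenced, with between 489 and 120696 reads per library, and the interval reached 0.012 to 0.18 to either side of the ratio. The smallest difference whose interval left out 0 was 2.68% (*ucr-2.1*), and the largest whose interval held 0 was a change of -8.79% (*nuo-3*). These counts moved with the scaling. The 3 other scalings tried were on the median of all genes, with TMM factors, and on the cytosolic ribosomal protein genes. They lowered each log2 ratio by 0.010 to 0.024, and with them 17 to 22 members were lower and 5 higher. The same shift applies to all genes, whose shares with these scalings are not given here, so these counts have no baseline. A direction is therefore given below only with its size. The call of 10 members changed with at least 1 scaling. With each of the 3, the intervals of *ucr-2.1* and *cox-6A* no longer lay above 0 and those of *nuo-1*, *ucr-1* and *atp-5* lay below 0. With the ribosomal scaling alone, those of *nuo-2*, *nuo-6*, *cox-7C*, *atp-3* and *asb-2* lay below 0. Intervals below are those with the library totals.

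**Figure D1:**
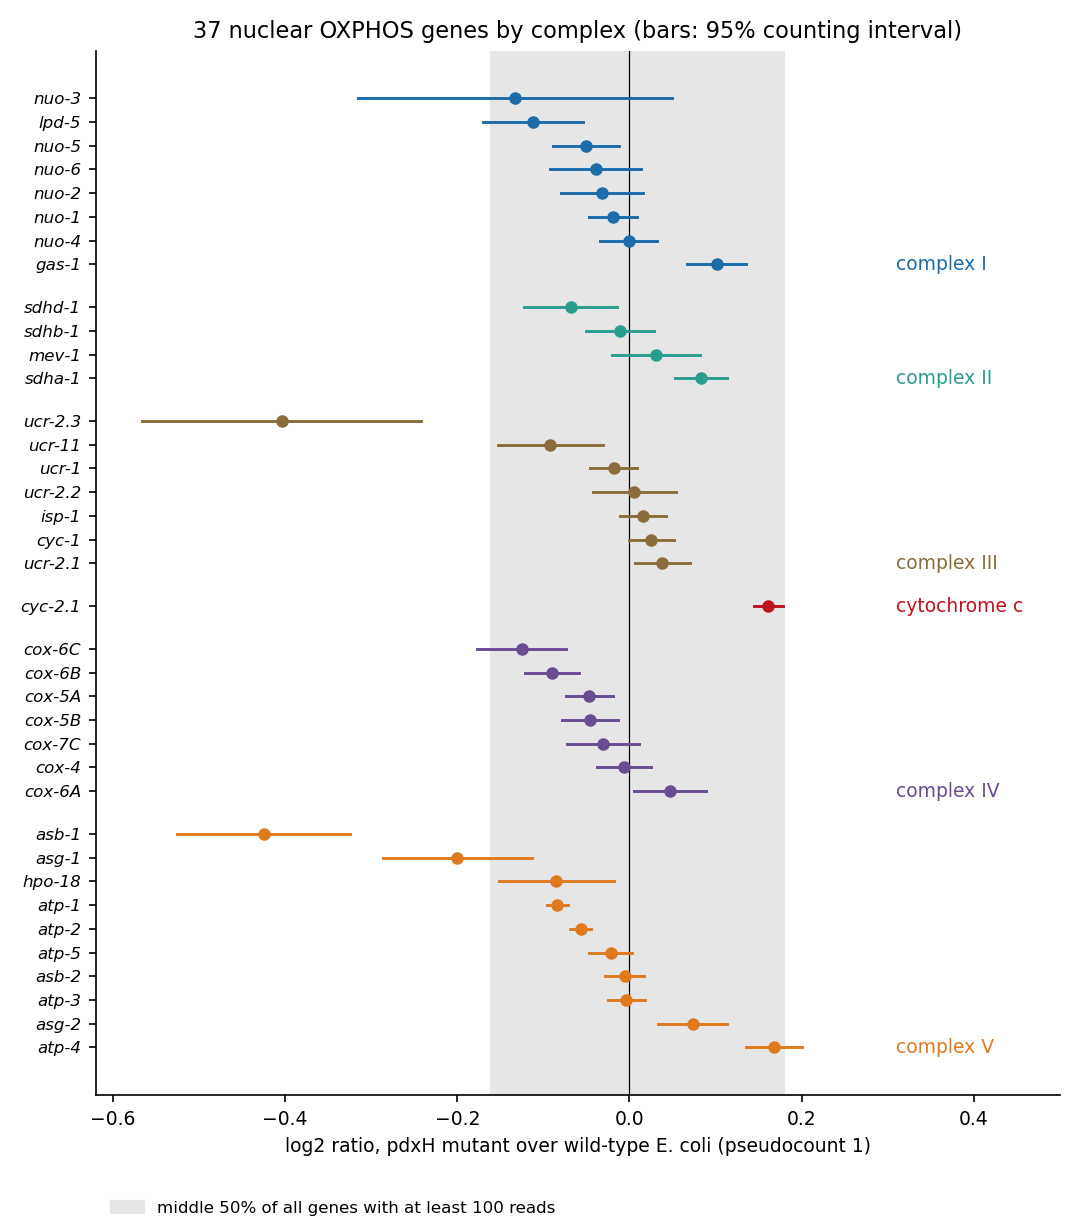
Log2 ratio of each of the 37 members with at least 100 reads, *pdxH* mutant over wild-type *E. coli* (x axis, no unit), grouped by complex on the y axis, with bars for the 95% counting interval of 1 library per diet. The grey band is the middle 50% of all genes with at least 100 reads, from -0.16 to 0.18, and *asb-1*, *ucr-2.3* and *asg-1* are the members to its left.

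Complex I, the NADH dehydrogenase, had 8 members with a median log2 ratio of -0.036. Below 0 were 7 of them, where 6374 of the 13227 genes with at least 100 reads were, and the interval held 0 for 5 of the 8. Its most abundant member per length was *nuo-1*, which encodes the flavin-binding subunit where NADH is oxidised. *nuo-1* had 19126 reads in the wild-type library and 21501 for the *pdxH* diet, levels of 292.7 and 288.9 RPKM, and its interval held 0 (-0.047 to 0.0091). *gas-1* encodes the 49 kDa core subunit close to the ubiquinone site. It was the only complex I member with an interval above 0, with 12563 and 15351 reads, at a ratio of 0.10 on the log2 scale (95% interval 0.067 to 0.14), which is 7.27% higher. *lpd-5*, an accessory subunit, had 4676 and 4929 reads, at a ratio of -0.11 on the log2 scale (95% interval -0.17 to -0.054). *nuo-5*, the iron-sulfur subunit next to *nuo-1* in the electron path, was at -0.050 with an interval below 0 (-0.089 to -0.012), and the core subunit *nuo-2*, the accessory subunit *nuo-4* and *nuo-6* were between -0.039 and -0.00066 with intervals that held 0.

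*nuo-3*, an accessory subunit, had the lowest log2 ratio of complex I, -0.13, with an interval that held 0 (-0.31 to 0.049). It had 489 and 508 reads. Its level, 11.14 and 10.16 RPKM, was far under that of the other 7 members, which ran from 101.4 to 292.7. The annotation places another gene model, *Y57G11C.1147*, over 72.6% of the exon bases of *nuo-3* on the same strand (chromosome IV, 14796419 to 14797544), and that model had 2 and 8 reads. How reads over shared bases were counted is not given in the sources used here, so the level of *nuo-3* is uncertain. No other member shared more than 4.19% of its exon bases with another gene.

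Complex II, succinate dehydrogenase, also belongs to the citric acid cycle and is encoded wholly in the nucleus. Its 4 members stayed between -0.068 and 0.083. *sdha-1*, the flavoprotein that binds succinate, was the highest, with 16154 and 19488 reads, at a ratio of 0.083 on the log2 scale (95% interval 0.053 to 0.11), and also the least abundant per length, at 165.3 and 175.1 RPKM. *sdhd-1*, a membrane anchor, was the lowest, with 5358 and 5822 reads, at a ratio of -0.068 on the log2 scale (95% interval -0.12 to -0.014). The iron-sulfur subunit *sdhb-1* was the most abundant per length, at 227.7 and 226.0, and the intervals of *sdhb-1* and of the other anchor *mev-1* held 0, at log2 ratios of -0.011 and 0.031. The flavoprotein was thus higher and 1 membrane anchor lower, each by a few percent.

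Complex III, the cytochrome bc1 complex, had 7 members, and 6 of them were between -0.092 and 0.038. The most abundant was *isp-1*, the Rieske iron-sulfur protein, with 20557 and 23676 reads and levels of 512.2 and 517.8 RPKM. *cyc-1*, which encodes cytochrome c1, had 22045 and 25555 reads, at a log2 ratio of 0.025. The core subunit *ucr-1* was at -0.018, and the intervals of these 3 genes held 0. *ucr-2.1*, which encodes a second core subunit, had the highest log2 ratio, 0.038 (95% interval 0.0064 to 0.070, which held 0 with each of the 3 other scalings), and the small subunit *ucr-11* was at -0.092 (95% interval -0.15 to -0.031). *ucr-2.3* stood apart from these and is described with the copies of single subunits.

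Cytochrome c was carried by 1 of its 2 genes. *cyc-2.1* (WBGene00017121, chromosome IV, 4747895 to 4749012) was the most abundant member per length, at 2272 RPKM in the wild-type library and 2541 for the *pdxH* diet. It had 50782 and 64693 reads, at a ratio of 0.16 on the log2 scale (95% interval 0.14 to 0.18), 11.8% higher. *cyc-2.1* and *atp-4* were the members with the highest ratios, and both were inside the middle 50% of all genes, at the 72.8th and 73.5th percentile. *cyc-2.2* (chromosome V, 12611682 to 12612218) had 4 reads in the wild-type library and 0 for the *pdxH* diet, which was at or near the limit of 3 reads taken for detection, so no difference was detectable at this depth.

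Complex IV, cytochrome c oxidase, had 7 nuclear members with a median log2 ratio of -0.046. Below 0 were 6 of them, where 6374 of the 13227 genes with at least 100 reads were, and the interval held 0 for 2 of the 7. *cox-6C* was the lowest, with 5950 and 6215 reads, at a ratio of -0.13 on the log2 scale (95% interval -0.18 to -0.074), and it was also the least abundant per length, at 365.4 and 335.1. *cox-6A* was the highest, with 8621 and 10148 reads, at a ratio of 0.047 on the log2 scale (95% interval 0.0058 to 0.089), an interval that held 0 with each of the 3 other scalings. *cox-5A* was the most abundant per length, at 686.0 and 664.3, with a log2 ratio of -0.046 (95% interval -0.074 to -0.019). These genes encode the outer, regulatory subunits of the oxidase, whose catalytic core is mitochondrially encoded. The others, *cox-4*, *cox-5B*, *cox-6B* and *cox-7C*, were between -0.090 and -0.0064.

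Complex V had 10 members and the widest range, from -0.42 for *asb-1* to 0.17 for *atp-4*. *atp-1* and *atp-2* encode the alpha and beta subunits that form the catalytic head of the enzyme, and they were the members with the most reads. *atp-2* had 110204 and 120696 reads, levels of 1403 and 1349 RPKM, and a log2 ratio of -0.057 (95% interval -0.069 to -0.045). *atp-1* had 107445 and 115494 reads, at a ratio of -0.084 on the log2 scale (95% interval -0.096 to -0.072). *atp-3*, *atp-5* and *asb-2*, of the stalk that holds the head to the membrane part, were between -0.022 and -0.0037, with intervals that held 0.

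*atp-4* (WBGene00020275, chromosome V, 6426246 to 6427112), which encodes a small stalk subunit known as a coupling factor in mammals, had the highest log2 ratio of all members. It had 13408 reads in the wild-type library and 17156 for the *pdxH* diet, a log2 ratio of 0.17 (95% interval 0.13 to 0.20), 12.3% higher. *hpo-18*, which encodes the epsilon subunit, was at -0.085 with 3481 and 3739 reads (95% interval -0.15 to -0.018). The intervals of *atp-4* and *hpo-18*, subunits of a single enzyme, did not overlap.

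**Figure D2:**
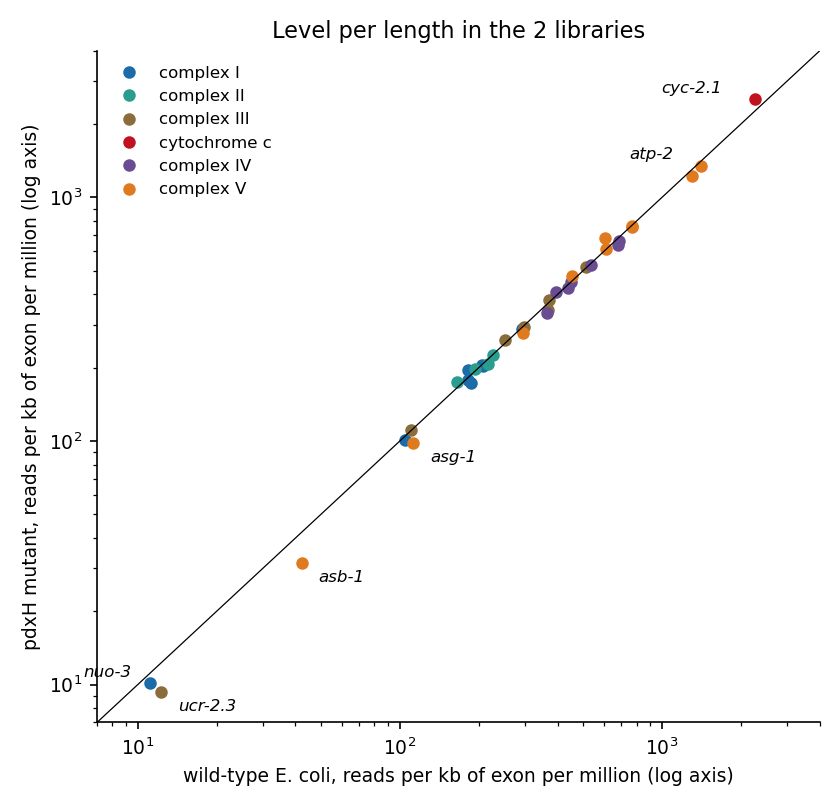
Level of the 37 members in RPKM computed with exon lengths, wild-type *E. coli* on the x axis and *pdxH* mutant on the y axis, both on log axes, coloured by complex, 1 library per diet. Most points lie close to the line of equality, up to *cyc-2.1* at 2272 and 2541, and *asb-1* and *ucr-2.3* are below it at low levels.

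Between complexes, each taken as its listed members only, the differences were small. By summed reads, cytochrome c had a log2 ratio of 0.16 (95% interval 0.14 to 0.18), complex II 0.029 (0.0091 to 0.049), complex III 0.0056 (-0.0073 to 0.019), complex I -0.0077 (-0.022 to 0.0066), complex IV -0.041 (-0.054 to -0.028) and complex V -0.042 (-0.049 to -0.036). Neighbours in this order had overlapping intervals, except cytochrome c with complex II and complex I with complex IV. The value of complex V rested on *atp-1* and *atp-2*, and without them its summed ratio was 0.0078 (95% interval -0.0036 to 0.019), a choice made after the values were seen. With the 3 other scalings the interval of complex I lay below 0, that of complex II held 0, and the summed ratio of complex III was below 0. The medians over genes kept complexes I, IV and V below 0 with each scaling, whereas those of complexes II (0.0098) and III (0.0057) were below 0 with each of the 3 other scalings, at -0.00064 to -0.014 and -0.0048 to -0.018.

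The levels per length differed more between complexes than between diets. In the wild-type library the median level was 184.7 RPKM for complex I, 206.1 for complex II, 296.7 for complex III, 450.6 for complex IV and 611.1 for complex V, and in the *pdxH* library these medians were 187.0, 203.2, 293.0, 448.7 and 647.4. The order was the same in both libraries. The 10 members of complex V alone held 0.821% and 0.797% of all reads. This is a part of the complex, and 7 further nuclear genes of complex V held 0.447% and 0.456%.

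**Figure D3:**
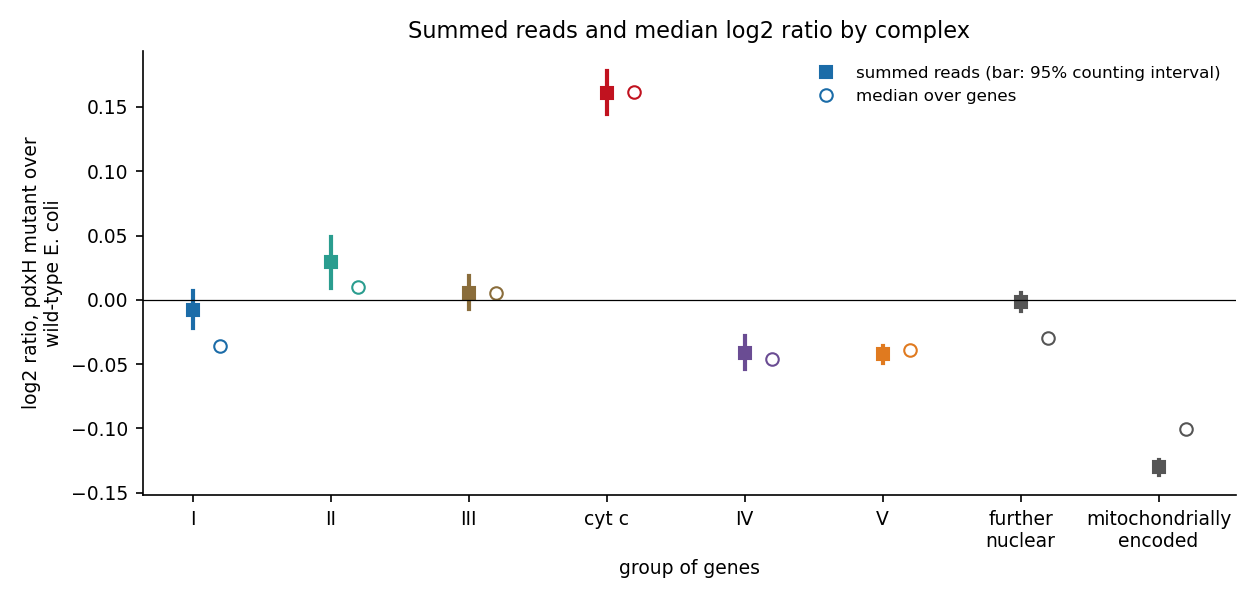
Log2 ratio of summed reads (squares, bars for the 95% counting interval) and median log2 ratio over genes (open circles), *pdxH* mutant over wild-type *E. coli*, for each complex, for 33 further nuclear subunits and for the 12 mitochondrially encoded subunits (x axis). The mitochondrially encoded subunits are the lowest, at -0.13 by summed reads, and cytochrome c the highest, at 0.16.

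Several subunits are encoded by more than 1 gene, and the copies were compared in listed pairs. *asb-2* and *asb-1* both encode subunit b of the ATP synthase stalk, and *asb-1* is known as the germline form. *asb-2* had 29546 and 33525 reads, at a log2 ratio of -0.0057, with an interval that held 0 (-0.028 to 0.017). *asb-1* (WBGene00000206, chromosome III, 4594543 to 4595821) had 1763 reads in the wild-type library and 1496 for the *pdxH* diet, a log2 ratio of -0.42 (95% interval -0.53 to -0.32), 25.5% lower, and a level of 42.2 and 31.4 RPKM, the lowest of complex V. Its share of the reads of the pair was 5.63% (Wilson 95% interval 5.38 to 5.89%) on the wild-type diet and 4.27% (4.06 to 4.49%) on the other.

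The same size of difference was seen in other minor copies. *ucr-2.3* (WBGene00020757, chromosome III, 879860 to 881458) had 677 and 583 reads, at a ratio of -0.40 on the log2 scale (95% interval -0.57 to -0.24), whereas *ucr-2.1*, at 14719 and 17217 reads, was at 0.038 and *ucr-2.2*, at 6460 and 7388 reads, was at 0.0057. Copies of 2 other subunits are not among the 38 genes but were listed with them. *nduf-2.2*, a copy of *gas-1*, had 935 and 804 reads, at a ratio of -0.41 on the log2 scale (95% interval -0.54 to -0.27), and *sdha-2*, a copy of *sdha-1*, had 1315 and 1136 reads, at a ratio of -0.40 on the log2 scale (95% interval -0.51 to -0.28). Per length, the main partner of these 4 copies (*ucr-2.1* for *ucr-2.3*) was 10.4 to 20.51 times as abundant on the wild-type diet and 14.5 to 27.9 times on the other. The log2 ratios of the 4 copies were between -0.42 and -0.40, and those of the partners between -0.0057 and 0.10.

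The less abundant copy of subunit g was also the lower one, by a smaller amount. The copies of subunit g of the ATP synthase were closer in level, *asg-2* at 453.3 and 477.0 RPKM and *asg-1* at 112.6 and 98.0, and their log2 ratios were 0.073 (95% interval 0.033 to 0.11) and -0.20 (95% interval -0.29 to -0.11). *ucr-2.2*, at 110.4 and 110.8 RPKM, was the exception among the less abundant copies of the listed pairs with at least 100 reads. Its interval held 0, and it had 30.5% and 30.0% of the reads of the pair with *ucr-2.1*. Of the 6 less abundant copies of the listed pairs with at least 100 reads, 5 had an interval below 0 and 4 were past -0.25, where 27% and 17.7% of all genes were. The ATP synthase inhibitor homologs *mai-1* and *mai-2*, not among the listed pairs, went the other way. The less abundant *mai-1* (57.7 and 61.4 RPKM) was at 0.091 (95% interval 0.013 to 0.17, which held 0 with the ribosomal scaling). *mai-2* (438.2 and 395.8 RPKM) was at -0.15 (-0.19 to -0.10). How reads that match several copies were counted is not given in the sources used here, so the levels of the minor copies are uncertain. Without the less abundant copies, the 33 remaining members lay between -0.13 (*nuo-3*) and 0.17 (*atp-4*), and 0 of them were past 0.25 in either direction (18% of all genes were above and 17.7% below). The 2 members past it, *asb-1* and *ucr-2.3*, were among the copies left out, so this count follows from leaving them out.

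Marker genes of all 4 tissues examined were detected, and their levels differed between the libraries. Of 12 germline markers, 7 were below -0.5 and 0 above 0.5, against 8.89% and 4.68% of all genes with at least 100 reads, and their median log2 ratio was -0.58, from -1.22 for *him-3*, a meiotic chromosome axis gene with 177 and 86 reads, to 0.23 for *rme-2*, the yolk receptor, with 226 and 303 reads. Their summed reads were 13291 and 10320, and none of the 12 was at 0 (86 to 5751 reads per library). The 8 body wall muscle markers had a median of -0.17, from *unc-22* at -0.42 (48420 and 41251 reads) to *tnt-2* at -0.053 (26851 and 29486 reads). The 8 intestine markers had a median of -0.25, from *cpr-1* at -0.79 (5879 and 3860 reads) to *ges-1* at 0.0032 (2442 and 2788 reads), and the 8 neuron markers one of 0.22, from *snb-1* at 0.074 (8341 and 10004 reads) to *egl-3* at 0.40 (26734 and 40258 reads). Below -0.5 were 2 of the 8 intestine markers, and 0 of the muscle and neuron markers were past 0.5 in either direction. The interval lay below 0 for 11 of 12 germline, 8 of 8 muscle and 6 of 8 intestine markers (27% of all genes). It lay above 0 for 7 of 8 neuron markers (28.7% of all genes). The part of these tissues in the differences between copies was not tested. In whole worms, fewer cells of a type and less RNA per cell cannot be told apart.

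**Figure D4:**
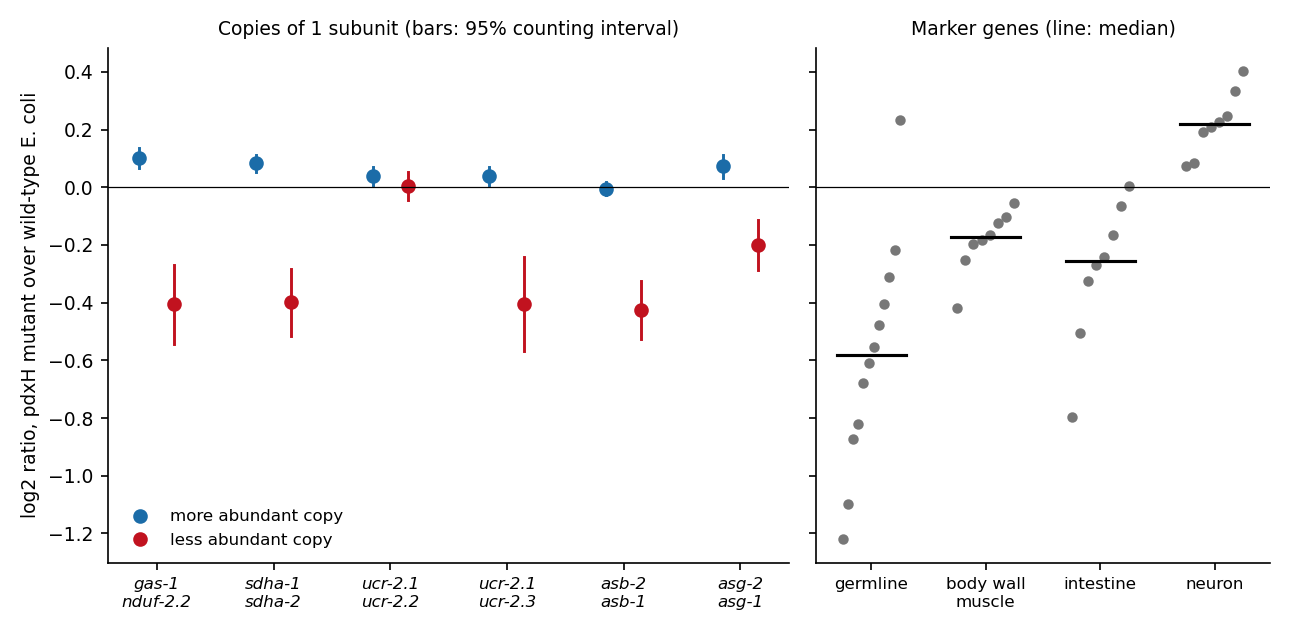
Log2 ratio, *pdxH* mutant over wild-type *E. coli* (y axis, both panels), of the more abundant (blue) and less abundant (red) copy of 1 subunit with 95% counting intervals (left), and of marker genes of 4 tissues with their median as a line (right), 1 library per diet. The copies *nduf-2.2*, *sdha-2*, *ucr-2.3* and *asb-1* lie between -0.42 and -0.40. The marker medians are -0.58 for germline, -0.17 for body wall muscle, -0.25 for intestine and 0.22 for neurons.

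Other nuclear genes of the pathway, listed by function, had a median close to that of the members, but single complexes differed. The 33 further subunits of complexes I, II, III and V had a median log2 ratio of -0.030, with 0 past 0.5 in either direction (4.68% of all genes were above and 8.89% below) and 2 below -0.25 (17.7% of all genes), namely *nduf-2.2* and *sdha-2*. Among the 21 of complex I, *ndub-10* was the highest, at 0.10 (11530 and 14081 reads), and among the 4 of complex III the values ran from -0.13 for *T02H6.11* (10418 and 10822 reads) to 0.11 for *R07E4.3* (1516 and 1870 reads). The 7 of complex V ran from -0.15 for *mai-2* (8331 and 8572 reads) to 0.091 for *mai-1* (2441 and 2961 reads), both homologs of the ATP synthase inhibitor.

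By summed reads, the 12 subunits encoded in mitochondrial DNA were lower as a group than their nuclear partners, but single genes were mixed. Their summed reads were 443699 and 461766, or 1.09% and 0.996% of their libraries, a log2 ratio of -0.13 (95% interval -0.14 to -0.12). Of the 12, 10 were below 0, where 6374 of the 13227 genes with at least 100 reads were. The interval lay below 0 for 8 (27% of all genes) and above 0 for 2 (28.7% of all genes). That of *ND6*, 1 of these 2, was 0.0030 to 0.30 and held 0 with each of the 3 other scalings. *ND5*, *ND3* and *ND2* were at -0.029, -0.041 and -0.081. *COX2*, which receives the electrons from cytochrome c, had 46753 and 39780 reads and was the lowest, at -0.42 (95% interval -0.44 to -0.40). *ND4*, a proton-pumping subunit of complex I, had 14083 and 12241 reads and was at -0.39. *COX1*, the catalytic core of complex IV, had the most reads, 179890 and 198827, and was at -0.044 (95% interval -0.053 to -0.034). The highest was *ND4L*, with 257 and 353 reads, at a ratio of 0.27 on the log2 scale (95% interval 0.034 to 0.51). The 3 mitochondrial subunits of complex IV thus ran from -0.42 to -0.044, a wider range than its 7 nuclear subunits.

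The pathways that feed and build the chain held 0 genes past 0.5 in either direction among those with at least 100 reads, where 4.68% of all genes were above 0.5 and 8.89% below -0.5. The 8 genes of ubiquinone synthesis had a median log2 ratio of 0.11, from *coq-5* at -0.00031 (1915 and 2181 reads) to *coq-2* at 0.19 (1851 and 2405 reads). With each scaling 7 of the 8 were above 0. With the library totals 6853 of the 13227 genes with at least 100 reads were above 0, and no such number is given for the other scalings. The interval lay above 0 for 4 of the 8 with the library totals, where it did for 28.7% of all genes. With the ribosomal scaling it did for 3, a count for which no share of all genes is given. *ant-1.1*, the adenine nucleotide translocator that exchanges ATP for ADP across the inner membrane, had 252692 and 328060 reads, at a ratio of 0.19 on the log2 scale (95% interval 0.18 to 0.20). Its relatives *ant-1.2*, *ant-1.3* and *ant-1.4* had 1 to 53 reads. The 19 genes of the citric acid cycle and pyruvate dehydrogenase had a median of -0.018, from *suca-1*, a succinyl-CoA ligase gene, at -0.32 (6869 and 6252 reads) to *pdha-1*, of pyruvate dehydrogenase, at 0.13 (16329 and 20384 reads).

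The 10 assembly factors had a median log2 ratio of 0.022, which was -0.0014 with the ribosomal scaling, from *cox-17*, a copper chaperone with 142 and 131 reads, at -0.30 to *nuaf-1*, a complex I assembly factor with 2238 and 3173 reads, at 0.32 (95% interval 0.24 to 0.39). The mitochondrial unfolded protein response is a stress program that raises the chaperones *hsp-6* and *hsp-60* when the chain is disturbed. *hsp-6* had 59863 and 68915 reads, at a log2 ratio of 0.015, and *hsp-60* had 9908 and 11064 reads, at a log2 ratio of -0.029. Both intervals held 0 with the library totals (-0.00062 to 0.031 and -0.068 to 0.011), but that of *hsp-60* lay below 0 with TMM factors and with the ribosomal scaling. The 7 genes of this list had a median of -0.029, from *ubl-5* at -0.31 (489 and 449 reads) to *atfs-1*, the transcription factor of the response, at 0.095 (6844 and 8327 reads). The 4 genes of mitochondrial DNA maintenance and transcription ran from *mtss-1* at -0.076 (1188 and 1284 reads) to *hmg-5*, which packages mitochondrial DNA, at 0.23 (1061 and 1414 reads).

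The members were spread over all 6 chromosomes. The 6 on chromosome X, *gas-1*, *sdha-1*, *ucr-2.1*, *ucr-2.2*, *asb-2* and *asg-2*, had a median log2 ratio of 0.056, close to the 0.065 of all 1985 genes of this chromosome with at least 100 reads. The 31 on autosomes had a median of -0.039, against 0.0017 for 11213 genes. Across the 37 members, the log2 ratio and the log2 of the mean level per length had a Pearson's r of 0.61 and a Spearman's rho of 0.28. Without *asb-1* and *ucr-2.3*, chosen after the values were seen, r was 0.35 and rho 0.15. These correlations are across genes that share the same 2 libraries and describe those libraries only.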

How the data were processed

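RNA of whole worms was sequenced as paired reads, 1 library per diet. Per the labels and the methods of the study, the authors trimmed reads with Trimmomatic, mapped them with STAR 2.5.3a at default settings to the ce11 genome and counted reads per gene with HTSeq. GFOLD 1.1.4 wrote the deposited table. Its signal columns, named RPKM, were made by the authors with the gene length fixed at 20 bases, so each deposited signal value is a read count scaled by the library total alone. The fold change, GFOLD and error rate columns are the authors' own comparison and were not used.

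Reads were recovered by dividing each value by that of 1 read, 1.23 in the wild-type and 1.08 in the *pdxH* library. Of values above 0, 97.8% and 97.6% came within 0.02 of a whole number, and 100% of those worth up to 20 reads did. They added up to 40707752 and 46372171, the totals in the table. Symbols and positions came from the gene name table and from Ensembl release 115 (WBcel235, the same assembly as ce11), which holds 46817 of the 46904 identifiers. Mitochondrial genes took RefSeq symbols by position. Exon length was the union of a gene's exons.

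Ratios used a pseudocount of 1. Intervals are exact conditional (Clopper-Pearson) 95% intervals, and shares carry Wilson intervals. Reads are not independent molecules, and all intervals cover counting error only. An exact two-sided binomial test on the reads of the 2 libraries, with Benjamini-Hochberg adjustment over 23141 genes with reads, called 3301 genes (14.3%) higher and 3326 (14.4%) lower. It compares these libraries, not the diets. On simulated reads of 23141 genes for this comparison, of which 200 were shifted by 1.5 on the log2 scale, the test found 200 of them and called 5 unchanged genes, and 95.6% of the intervals held the true value. These reads were drawn with Poisson counting error only, which the test and the intervals assume, and the shift was larger than that of any member with at least 100 reads. The simulation therefore checks the calculation and says nothing about variation between cultures or about small differences. Python 3.11.15, scipy 1.17.1, R 4.3.3 and edgeR 4.0.16 (TMM factors) were used.

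Values in both libraries are printed for the members with the lowest and highest ratio and the most and least abundant per length of each complex, those past 0.5, those with a copy, and the lowest and highest gene of each other list. Members and lists were chosen with earlier results of these data known. *COX1*, *nduf-2.2*, *sdha-2*, *ND4*, *ND5*, *ND6*, *ND3*, *ND2*, *hsp-6*, *hsp-60* and the other members named were added beside this rule. The alternatives were other pseudocounts, thresholds, read minimums and scalings.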

Additional observations from a re-analysis of the deposited data

How the results depend on the processing

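No paired analysis was possible because neither diet was sequenced more than once, and no library could be left out. The log2 ratios of the 37 members with at least 100 reads moved by less than their counting interval with a pseudocount of 0.1 or 10, with TMM factors and with centring on the median of all genes. Scaling by the ribosomal protein genes moved 5 of them past it, and cytochrome c then stood at 0.14. The number of members with an interval below 0 was 14, and 22 with that scaling, for which no share of all genes is given. By the exact binomial test on the reads of these 2 libraries, at a Benjamini-Hochberg threshold of 0.05, 14 members were lower and 5 higher. Of the 23141 genes with reads, that test called 14.4% lower and 14.3% higher. The number of members below -0.5 was 0, and 2 were below a threshold of -0.25.

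By summed reads, scaling by the ribosomal protein genes gave -0.031 for complex I, 0.0055 for complex II, -0.018 for complex III, -0.065 for complex IV, -0.066 for complex V and 0.14 for cytochrome c. Complex V was at -0.054 with TMM factors, at -0.053 when centred and, an alternative added after the data were seen, at 0.0078 without *atp-1* and *atp-2*. The ratio of *ant-1.1* was 0.18 with TMM factors, 0.18 when centred and 0.17 with the ribosomal scaling. Past a log2 ratio of 0.5 there were 619 higher and 1176 lower genes at the minimum of 100 reads, 4123 and 4499 without a minimum, and 161 and 515 at 1000 reads. Depth limits *cyc-2.2*, *cox-17* and *nuo-3*. The variation between cultures, which no value here measures, limits the rest.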
